A study of Mus musculus with 12 samples.

Results

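The genes described here are 6 mouse chemokine genes, Ccl3, Ccl4, Ccl5, Ccl9, Cxcl2 and Cxcl10, out of 18193 genes measured by a probe set named for a single gene. They were chosen by their measured values, as chemokine genes with a higher level in multipotent progenitors than in haematopoietic stem cells, so their values in that comparison describe the choice and are given without a test. The 6 genes are read by 7 probe sets, of which Ccl9 has 2, and the probe set brightest over the 12 arrays gives each gene's level. RNA was measured on Affymetrix GeneChip arrays in 4 sorted populations from C57Bl/6 mice aged 10 to 12 weeks, for which the labels name no genetic change and no treatment. Haematopoietic stem cells (HSC, 3 arrays) came from bone marrow as lineage-, cKit+, Sca1+ cells that carried CD150 and lacked Flt3. Multipotent progenitors (MPP, 3 arrays) were the marrow cells with the same lineage-, cKit+, Sca1+ profile that lacked CD150 and carried Flt3. PreMegE cells (4 arrays) are marrow progenitors of megakaryocytes and red cells and were sorted as lineage- cells with cKit and CD150 and without Sca1, CD105 or CD41. CD4+ T cells (2 arrays) came from spleen and were sorted as CD4+ cells without CD8, B220 or Nk1.1. The study itself sorted HSC and MPP. It took its PreMegE and CD4+ T cell data from 2 separate earlier works of the same group, which leaves population and study impossible to tell apart across these 3 sources. Whether arrays of a group stem from different animals is not given, and a p-value here covers only the spread among the arrays at hand, which may be technical.

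Chemokines are small secreted proteins that bind receptors coupled to G proteins and steer the movement of blood cells. The CC family is named after the spacing of its conserved cysteines and includes Ccl3, Ccl4, Ccl5 and Ccl9, which mainly attract monocytes, macrophages and lymphocytes, while the CXC family includes Cxcl2, which draws neutrophils, and Cxcl10, which draws activated T cells. In macrophages these genes are textbook targets of inflammatory signalling through NF-kB, and Cxcl10 is in addition a classic interferon-inducible gene. In marrow, Ccl3 is known for its action on stem and progenitor cells, and Cxcl2 for the release of neutrophils into blood.

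The sorted populations carried the transcripts of their sort markers. Flt3 lay at 9.95 to 10.10 log2 units in MPP and at 6.34 to 6.82 in HSC, Slamf1, which encodes CD150, lay at 6.67 to 7.05 in HSC and at 3.53 to 3.86 in MPP, and Cd4 lay at 9.11 to 9.49 on the splenic arrays against 4.50 to 5.13 on the marrow arrays. The HSC arrays differed among themselves. Xist, transcribed from the inactive X chromosome, lay at 12.04 on HSC replicate 1 but at 2.45 and 2.59 on HSC replicates 2 and 3, where the Y-linked Eif2s3y lay at 7.46 and 8.47. On all MPP, PreMegE and CD4+ T cell arrays Xist lay at 10.91 to 12.44 and Eif2s3y at 2.31 to 2.71, so HSC replicates 2 and 3 were the only arrays with this male-type pattern and it runs along the comparison of MPP with HSC. HSC replicate 2 also had a high level of the neutrophil granule transcript Ngp, at 11.01 against 8.20 and 7.84 on the other two HSC arrays. In an alternative, HSC replicate 1, which matches the other populations in Xist and Eif2s3y, was kept as the only HSC array. With 1 HSC array in place of 3 the SE was wider, at 0.39 in place of 0.26 for Ccl9 between MPP and HSC. Calls lost in this alternative therefore cannot be told apart from the loss of arrays.

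The promoters of the genes are shown because 3 of the 4 found in the RefSeq table carry a match to the NF-kB motif, whose textbook targets are counted further on. Each sequence is the 250 bases before the start of the gene in build GRCm38.p6, 5′ to 3′ on the gene's own strand, with NF-kB motif matches in capitals. The windows are chr11:83649379-83649628 on the minus strand for Ccl3, chr11:83578637-83578886 on the minus strand for Ccl9, chr5:90903649-90903898 on the plus strand for Cxcl2 and chr5:92348890-92349139 on the minus strand for Cxcl10. Ccl4 and Ccl5 are named only.
Ccl3: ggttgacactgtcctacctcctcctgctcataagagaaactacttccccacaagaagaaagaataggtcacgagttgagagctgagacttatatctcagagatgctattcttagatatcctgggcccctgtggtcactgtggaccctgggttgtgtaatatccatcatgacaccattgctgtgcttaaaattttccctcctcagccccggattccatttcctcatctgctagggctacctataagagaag
Ccl9: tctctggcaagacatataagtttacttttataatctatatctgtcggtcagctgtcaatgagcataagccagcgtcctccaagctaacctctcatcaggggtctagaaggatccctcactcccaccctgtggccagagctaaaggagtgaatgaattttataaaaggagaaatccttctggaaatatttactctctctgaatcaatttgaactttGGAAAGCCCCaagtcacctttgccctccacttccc
Cxcl2: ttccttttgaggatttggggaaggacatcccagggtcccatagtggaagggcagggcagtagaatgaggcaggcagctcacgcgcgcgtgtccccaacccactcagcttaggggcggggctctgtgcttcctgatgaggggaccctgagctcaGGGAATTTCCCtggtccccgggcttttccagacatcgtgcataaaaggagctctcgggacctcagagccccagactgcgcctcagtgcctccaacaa
Cxcl10: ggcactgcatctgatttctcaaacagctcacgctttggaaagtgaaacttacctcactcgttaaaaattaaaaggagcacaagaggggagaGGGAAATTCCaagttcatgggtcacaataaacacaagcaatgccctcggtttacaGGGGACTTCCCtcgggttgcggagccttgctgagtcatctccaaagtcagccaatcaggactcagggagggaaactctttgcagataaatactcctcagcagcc

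The Cxcl2 window holds 2 overlapping NF-kB matches between bases -97 and -87 from the start, read as GGGAATTTCC and GGAATTTCCC. The Cxcl10 window holds a match at -159 to -150, GGGAAATTCC, and 2 overlapping matches between -104 and -94. It also holds an AP-1 match at -74 to -68, where the motif is TGANTCA, and a match to the interferon-stimulated response element at -213 to -204, which reads GAAAGTGAAA. The Ccl9 window has an NF-kB match on the opposite strand at -35 to -26, an AP-1 match at -53 to -47, and 3 matches to the TATA box letters TATAAA, of which 2 overlap on opposite strands between -94 and -87. The Ccl3 window holds 0 matches to these motifs or to the C/EBP motif TTGCNNAA. All motifs were searched on both strands. Among all 32851 RefSeq promoter windows of this length, 7.25% hold the NF-kB motif, 6.75% the AP-1 motif, 2.98% the interferon-stimulated response element, 9.56% the C/EBP motif and 12.4% the TATA box letters. A match describes letters in the window and is no evidence of binding.

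Levels are log2 intensities, given per array in the order of the replicate numbers, and means carry the SD over arrays. Lower quartiles over all genes lay at 3.27 to 3.35 in the 4 populations. The deposited values carry no detection calls, so a level under that quartile may hold little more than background, and a fold change against it is a ratio of measured intensities.

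Ccl3, a ligand of Ccr1, lay at 8.85, 8.11 and 8.86 on the MPP arrays (8.61 ± 0.43, n = 3) and at 3.38, 3.19 and 3.03 on the HSC arrays (3.20 ± 0.18, n = 3). It lay at 2.90, 2.97, 2.72 and 2.89 in PreMegE cells and at 2.98 and 2.86 in CD4+ T cells. Every MPP array was far above every other array, and the means of the other populations were all under the lower quartile. The difference between MPP and HSC was 5.41 ± 0.19 log2 units (SE), a ratio of 42.5, and ranked 3 from the top among all genes.

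Ccl4, the closest relative of Ccl3 among these genes, lay at 7.07, 6.93 and 7.004 in MPP (7.001 ± 0.07, n = 3) and at 4.94, 4.36 and 4.55 in HSC (4.62 ± 0.29, n = 3). PreMegE cells had 4.14, 3.67, 3.74 and 4.32 (3.97 ± 0.32, n = 4), and CD4+ T cells had 4.03 and 3.97 (3.995 ± 0.04, n = 2). The MPP arrays were again above all others, the HSC arrays came next without overlap, and PreMegE and CD4+ T cells overlapped. Ccl4 was 2.39 ± 0.19 log2 units higher in MPP than in HSC, a ratio of 5.22.

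Ccl9, a ligand of Ccr1 known from macrophages and other myeloid cells, lay at 10.25, 10.07 and 10.24 in MPP (10.18 ± 0.10, n = 3) and at 5.26, 5.13 and 5.11 in HSC (5.17 ± 0.09, n = 3). The other populations overlapped with HSC and with each other, at 5.81, 5.26, 4.65 and 5.70 in PreMegE cells and 4.46 and 5.22 in CD4+ T cells. The difference between MPP and HSC was 5.02 ± 0.26, a ratio of 32.4. The second, dimmer probe set of Ccl9 read 4.32, 3.97 and 3.50 in MPP and 3.30, 3.10 and 3.05 in HSC, which is higher in MPP on every array but by only 0.78 log2 units, and the mean of both probe sets gave 2.90. On the dimmer probe set the HSC, PreMegE and CD4+ T cell means were 3.15, 2.94 and 3.01, all under the lower quartile. The size of the Ccl9 difference therefore depends on the probe set, and the dimmer one may hold little more than background outside MPP.

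Ccl5, a ligand of Ccr1 and Ccr3 best known as a product of T cells and NK cells, had another pattern. Its highest levels were the 8.76 and 8.33 of the CD4+ T cells (8.55 ± 0.31, n = 2). MPP had 5.37, 4.76 and 5.79 (5.31 ± 0.52, n = 3), HSC had 4.76, 4.59 and 4.28 (4.54 ± 0.24, n = 3) and PreMegE cells had 4.37, 4.33, 4.07 and 4.07 (4.21 ± 0.16, n = 4). CD4+ T cells stood above all marrow arrays, whereas MPP replicate 2 and HSC replicate 1 overlapped, and HSC overlapped with PreMegE cells. The MPP mean was 0.76 ± 0.23 above that of HSC, a ratio of 1.70, and this was the smallest difference among the 6 genes.

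Cxcl2, a ligand of Cxcr2, lay at 9.82, 9.83 and 9.72 in MPP (9.79 ± 0.06, n = 3) and at 6.21, 4.57 and 4.84 in HSC (5.21 ± 0.88, n = 3). PreMegE cells had 2.37, 2.47, 2.56 and 2.76, and CD4+ T cells had 2.84 and 2.76, with both means under the lower quartile. The MPP arrays lay close together and far above the rest, HSC came next, and HSC replicate 1 was well above the other two HSC arrays. The difference between MPP and HSC was 4.58 ± 0.30, a ratio of 23.9, and was 3.58 with HSC replicate 1 as the only HSC array and 5.08 without it. Cxcl2 also had the widest range of the 6 genes, 7.25 log2 units between the MPP and PreMegE means.

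Cxcl10, a ligand of Cxcr3, lay at 5.67, 5.38 and 5.97 in MPP (5.68 ± 0.30, n = 3) and at 4.91, 4.06 and 4.64 in HSC (4.54 ± 0.44, n = 3). CD4+ T cells had 4.72 and 4.91 (4.82 ± 0.14, n = 2), which overlapped with HSC. PreMegE cells had the lowest levels, 3.97, 3.27, 3.28 and 3.72 (3.56 ± 0.34, n = 4), below every HSC array. The difference between MPP and HSC was 1.14 ± 0.24, a ratio of 2.20, and was 0.77 with HSC replicate 1 as the only HSC array. In bulk RNA, more cells that transcribe a gene and more RNA per cell cannot be told apart, and this holds for every level given here.

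**Figure D1:**
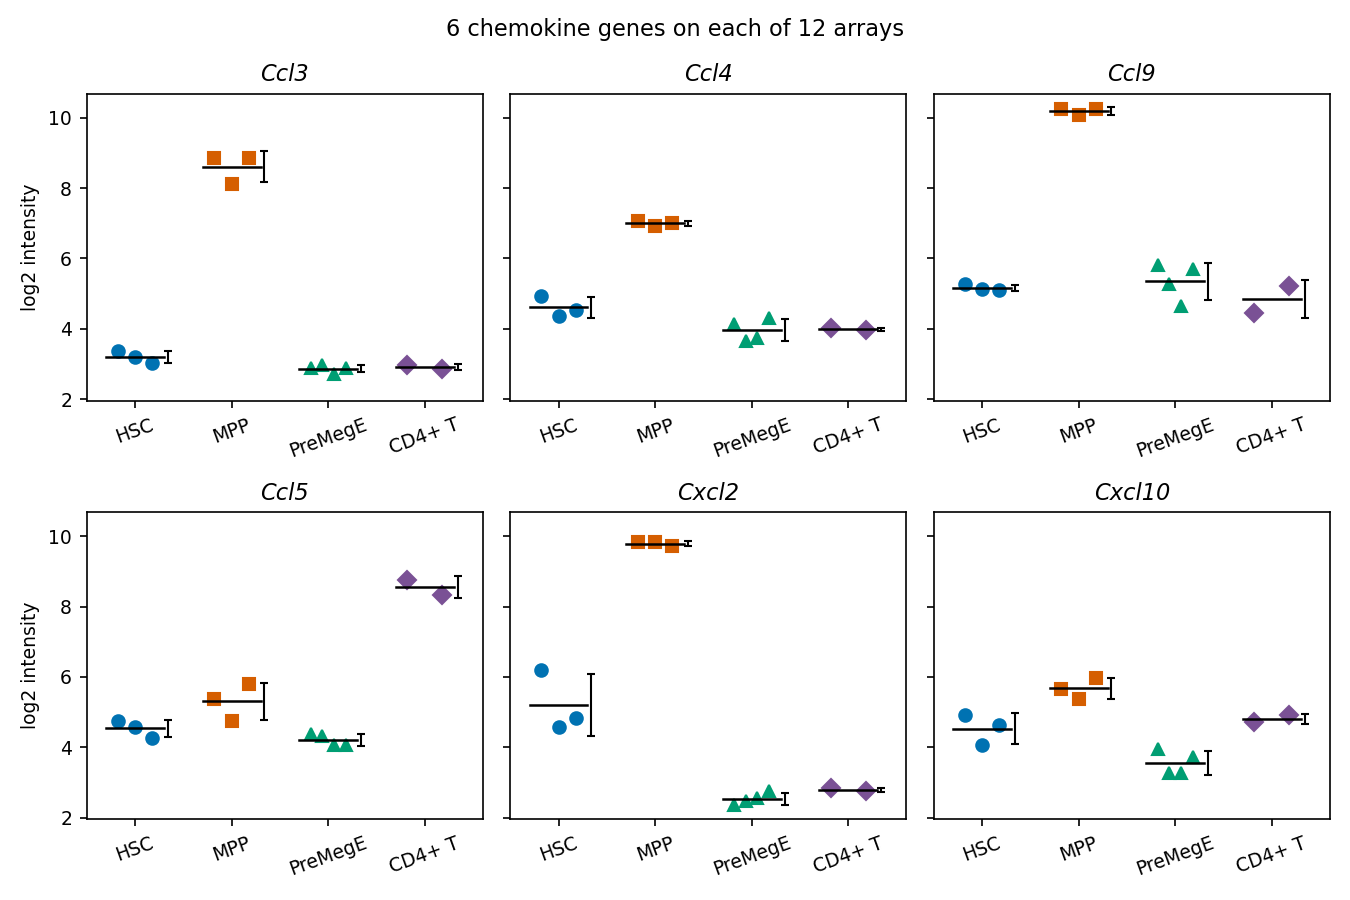
Log2 intensity (vertical axes) of each of the 6 genes in the 4 populations (horizontal axes), with a point per array and a bar at the group mean. Ccl3, Ccl4, Ccl9, Cxcl2 and Cxcl10 have their highest arrays in MPP, whereas Ccl5 lies at 8.76 and 8.33 in CD4+ T cells, above all marrow arrays.

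Between MPP and HSC, 5 of the 6 genes had MPP arrays that were all above the HSC arrays, and Ccl5 overlapped. Over all genes, 15.2% had arrays higher in MPP without overlap and 6.38% were called higher at an adjusted p under 0.05. As the genes were chosen on this difference, nothing is read from their count. The ranks of their differences among all 18193 genes were 3 for Ccl3, 4 for Ccl9, 6 for Cxcl2, 64 for Ccl4, 352 for Cxcl10 and 827 for Ccl5. The weakest of them, Ccl5 at 0.76 and Cxcl10 at 1.14, thus lay well below the other 4 genes, whose differences were 2.39 or more.

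Within the groups the arrays also had an order that most of the genes shared. HSC replicate 1 had the highest HSC level for all 6 genes, and MPP replicate 2 had the lowest MPP level for 5 of them, the exception being Cxcl2, which was lowest on MPP replicate 3. HSC replicate 1 is the HSC array that carried Xist, and whether this bears on the order was not tested.

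The comparisons of PreMegE and CD4+ T cells with HSC and with MPP share arrays with the one on which the genes were chosen and are given as values only. Against MPP, PreMegE cells were lower without overlap for all 6 genes, where 21.9% of all genes were, with differences of -7.25 for Cxcl2, -5.74 for Ccl3, -4.83 for Ccl9, -3.04 for Ccl4, -2.12 for Cxcl10 and -1.10 for Ccl5. CD4+ T cells were lower than MPP without overlap for 5 genes, where 31.0% of all genes were, and higher for Ccl5, by 3.24 ± 0.26, where 26.8% of all genes were higher without overlap. Against HSC, PreMegE arrays were lower without overlap for Ccl3, Ccl4, Cxcl2 and Cxcl10, where 18.4% of all genes were, with the widest gap for Cxcl2 at -2.67 ± 0.28. CD4+ T cells were lower than HSC without overlap for Ccl3, Ccl4 and Cxcl2, where 30.6% of all genes were, and higher for Ccl5 by 4.004 ± 0.26, a ratio of 16.04, where 23.7% of all genes were. With HSC replicate 1 as the only HSC array, the Cxcl2 difference between PreMegE cells and HSC was -3.67.

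In CD4+ T cells against PreMegE cells, the difference itself uses neither MPP nor HSC arrays. The 6 genes were tested in this comparison with limma, with Benjamini-Hochberg adjustment over all genes. The SE and p-value come from the model fitted to all arrays, so the spread of the MPP and HSC arrays enters them. For Ccl3 the SE was 0.16 without MPP replicate 2, in place of 0.20. Ccl5 was higher in CD4+ T cells by 4.34 ± 0.24 log2 units, a ratio of 20.2 (adjusted p = 8.36e-10), and Cxcl10 was higher by 1.26 ± 0.25, a ratio of 2.39 (adjusted p = 0.00089). All CD4+ T cell arrays were above all PreMegE arrays for Ccl5, Cxcl10 and Cxcl2, for Cxcl2 by a gap of only 0.0034 log2 units. The share of all genes without overlap is not given for this comparison, so nothing is read from it. Only Ccl5 and Cxcl10 were called. The other 4 genes did not pass, with differences of 0.05 ± 0.20 for Ccl3 (adjusted p = 0.897), 0.03 ± 0.20 for Ccl4 (0.942), -0.51 ± 0.27 for Ccl9 (0.183) and 0.26 ± 0.32 for Cxcl2 (0.606). Thus 2 of 6 genes were called, both higher, where 33.1% of all genes were called in either direction and 16.3% were called higher and 16.8% lower, so the share is that of the background. Without PreMegE replicate 3, Ccl9 was called as well, at -0.75 (adjusted p = 0.015). Ccl5 and Cxcl10 were called under all 22 alternative settings, among them a fit of the CD4+ T cell and PreMegE arrays alone.

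Markers of cytotoxic lymphocytes, which are known to make Ccl5, were in part higher too in this comparison, although the sort was for cells without CD8 and Nk1.1. Of 8 NK and cytotoxic marker genes, 5 were higher in CD4+ T cells and 1 was lower. Over all genes 16.3% were called higher and 16.8% lower, and these shares stand beside every marker count of this paragraph. The NK receptor gene Klrd1 was higher by 5.35 ± 0.32, the transcription factor gene Tbx21 by 3.09 ± 0.19, the perforin gene Prf1 by 3.03 ± 0.22, Eomes by 1.21 ± 0.18 and Gzma by 0.89 ± 0.20, while Nkg7, a granule protein gene, was lower, at -1.54 ± 0.17. The NK receptor gene Ncr1 differed by 0.09 and did not pass. The summed intensity of the 8 genes was 672 to 969 in CD4+ T cells and 606 to 715 in PreMegE cells, with 0 of 8 means under the lower quartile in CD4+ T cells. Of the dendritic cell markers, 5 of 8 were higher in CD4+ T cells and 0 lower, with sums of 2241 to 3285 against 220 to 248, and of the macrophage and monocyte markers 5 of 14 were higher and 1 lower, with sums of 725 to 852 against 295 to 352. Of the B cell markers 3 of 5 were higher and 0 lower, with sums of 273 to 291 against 63.4 to 83.6, although B220 was gated out, and of the mature neutrophil markers 0 of 9 were higher and 6 lower, with sums of 119 to 177 against 642 to 2445. The part of such cells in the Ccl5 and Cxcl10 levels was not tested.

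The receptor genes of these chemokines were not called between the marrow populations. Of the 6 receptor genes analysed here, 0 were called between MPP and HSC in either direction, where 11.3% of all genes were. Ccr1 and Ccr3 were under the lower quartile in all 4 populations. Cxcr2, the receptor of Cxcl2, lay at 3.50 to 4.003 in HSC and 3.89 to 4.12 in MPP, which overlap. Cxcr3, the receptor of Cxcl10, lay at 3.79, 4.04 and 3.70 in HSC, at 4.05, 3.69 and 3.74 in MPP, at 3.80, 3.50, 3.66 and 4.03 in PreMegE cells, and at 9.75 and 9.67 in CD4+ T cells. It was the only receptor gene of the 6 called in any comparison, higher in CD4+ T cells than in HSC by 5.87 ± 0.19 (adjusted p = 2.02e-12), than in MPP by 5.88 ± 0.19 (adjusted p = 2.37e-12) and than in PreMegE cells by 5.96 ± 0.18 (adjusted p = 6.88e-13), comparisons in which 17.0%, 15.5% and 16.3% of all genes were called higher. The scavenging receptor gene Ackr1 differed by -0.14 ± 0.15 between MPP and HSC (adjusted p = 0.694).

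Among the other chemokine ligand genes, the platelet chemokine genes Pf4 and Ppbp were lower in MPP than in HSC. Of 32 listed, 29 were measured, and 0 rose and 2 fell. As the 6 genes were taken out of the family for being higher on this same difference, the lack of rises among the rest follows from that choice and nothing is read from it. The 29 genes had a median difference of -0.08 beside -0.03 over all genes, of which 4.93% were called lower. Pf4 fell by 4.02 on the log2 scale (SE 0.22, adjusted p = 1.62e-08), from 10.64, 10.88 and 11.09 in HSC to 7.04, 6.55 and 6.95 in MPP. Ppbp fell by 1.36 (SE 0.19, adjusted p = 0.000223), from 4.52, 4.998 and 4.83 to 3.41, 3.37 and 3.49. The neutrophil attractant gene Cxcl1, which like Cxcl2 signals through Cxcr2, differed by -0.21 (adjusted p = 0.772), with a sign that depended on the probe set and on HSC replicate 2. Cxcl9 and Cxcl11, the other ligands of Cxcr3, lay at 4.50 to 4.82 and 3.50 to 3.71 in HSC and at 4.63 to 4.95 and 3.45 to 3.93 in MPP, and overlapped.

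**Figure D2:**
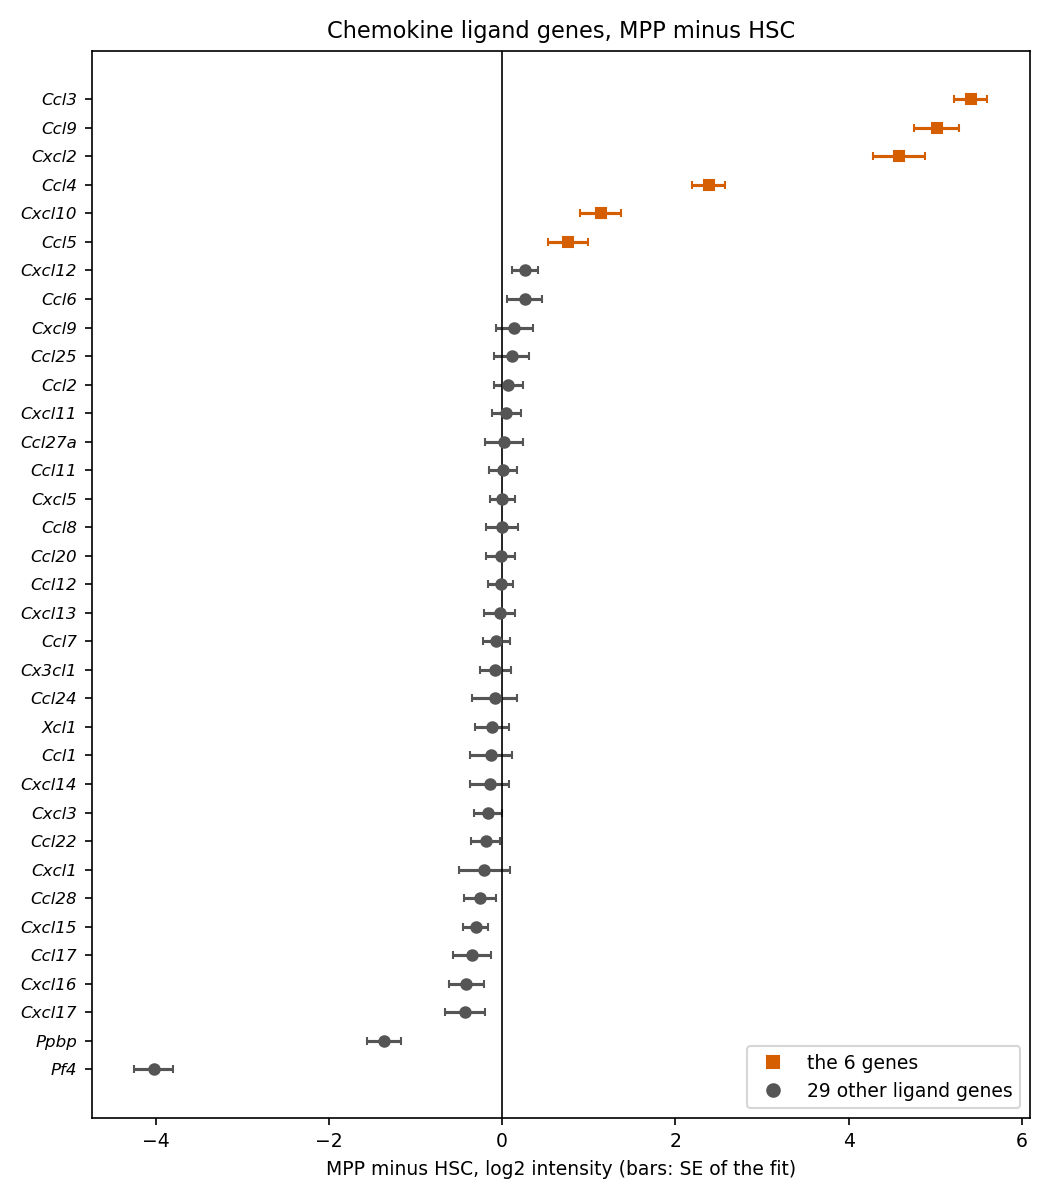
MPP minus HSC difference in log2 intensity (horizontal axis, bars are the SE of the fit) for each of the 35 chemokine ligand genes measured (vertical axis), squares for the 6 genes described and circles for the 29 others. Ccl3, Ccl9 and Cxcl2 lie above 4 log2 units, most other ligand genes lie near 0, and Pf4 lies at -4.02.

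Ccl5, Ccl9, Ccl3 and Ccl4 sit in a chemokine cluster on chromosome 11, and the order of measured protein-coding genes in RefSeq there is Taf15, Ccl5, Ccl9, Ccl6, Ccl3, Ccl4, Wfdc17, Wfdc18, Wfdc21 and Heatr6. The neighbours were looked up after the values of the genes had been seen. Ccl6, a CC chemokine gene between Ccl9 and Ccl3, did not pass the test between MPP and HSC, at 0.26 ± 0.20 (adjusted p = 0.519), with 3.12, 3.46 and 3.16 in HSC and 3.11, 3.46 and 3.95 in MPP. The Ccl6 means of HSC and PreMegE cells were under the lower quartile, so these levels may hold little more than background. On the far side of Ccl4, 2 genes of the whey acidic protein family rose in MPP. Wfdc17 rose by 1.95 ± 0.25 (adjusted p = 0.000101), from 4.81, 5.35 and 4.65 to 6.95, 6.71 and 7.02. Wfdc18 rose by 2.06 ± 0.26 (adjusted p = 8.25e-05), from 3.79, 3.63 and 3.48 to 6.13, 4.95 and 6.00. Both were called under all 22 alternatives. Beyond them, Wfdc21 at -0.68 (adjusted p = 0.171) and Heatr6 at 0.27 (adjusted p = 0.56) did not pass, and the next gene, Ddx52, which encodes an RNA helicase, rose by 0.83 ± 0.21 (adjusted p = 0.0179). Taf15 on the other side of Ccl5 did not pass, at 0.01 (adjusted p = 0.996).

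Cxcl2 lies on chromosome 5 in a row of CXC genes with the order Ppbp, Pf4, Cxcl3, Cxcl15, Cxcl1, Cxcl2 and Mthfd2l. In this row Cxcl2 was higher in MPP, Pf4 and Ppbp fell, and the 3 genes between them did not pass, with -0.16 for Cxcl3 (adjusted p = 0.648), -0.30 for Cxcl15 (adjusted p = 0.238) and -0.21 for Cxcl1. The Cxcl3 means were under the lower quartile in all 4 populations, as was the MPP mean of Cxcl15, and may hold little more than background. Cxcl10 lies elsewhere on the same chromosome beside Art3 and Cxcl9. Neither Cxcl9, at 0.14 (adjusted p = 0.788), nor Art3, at 0.21 (adjusted p = 0.61), passed between MPP and HSC, and Nup54 on the other side, a nuclear pore gene, was lower in MPP by -0.68 (adjusted p = 0.031).

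**Figure D3:**
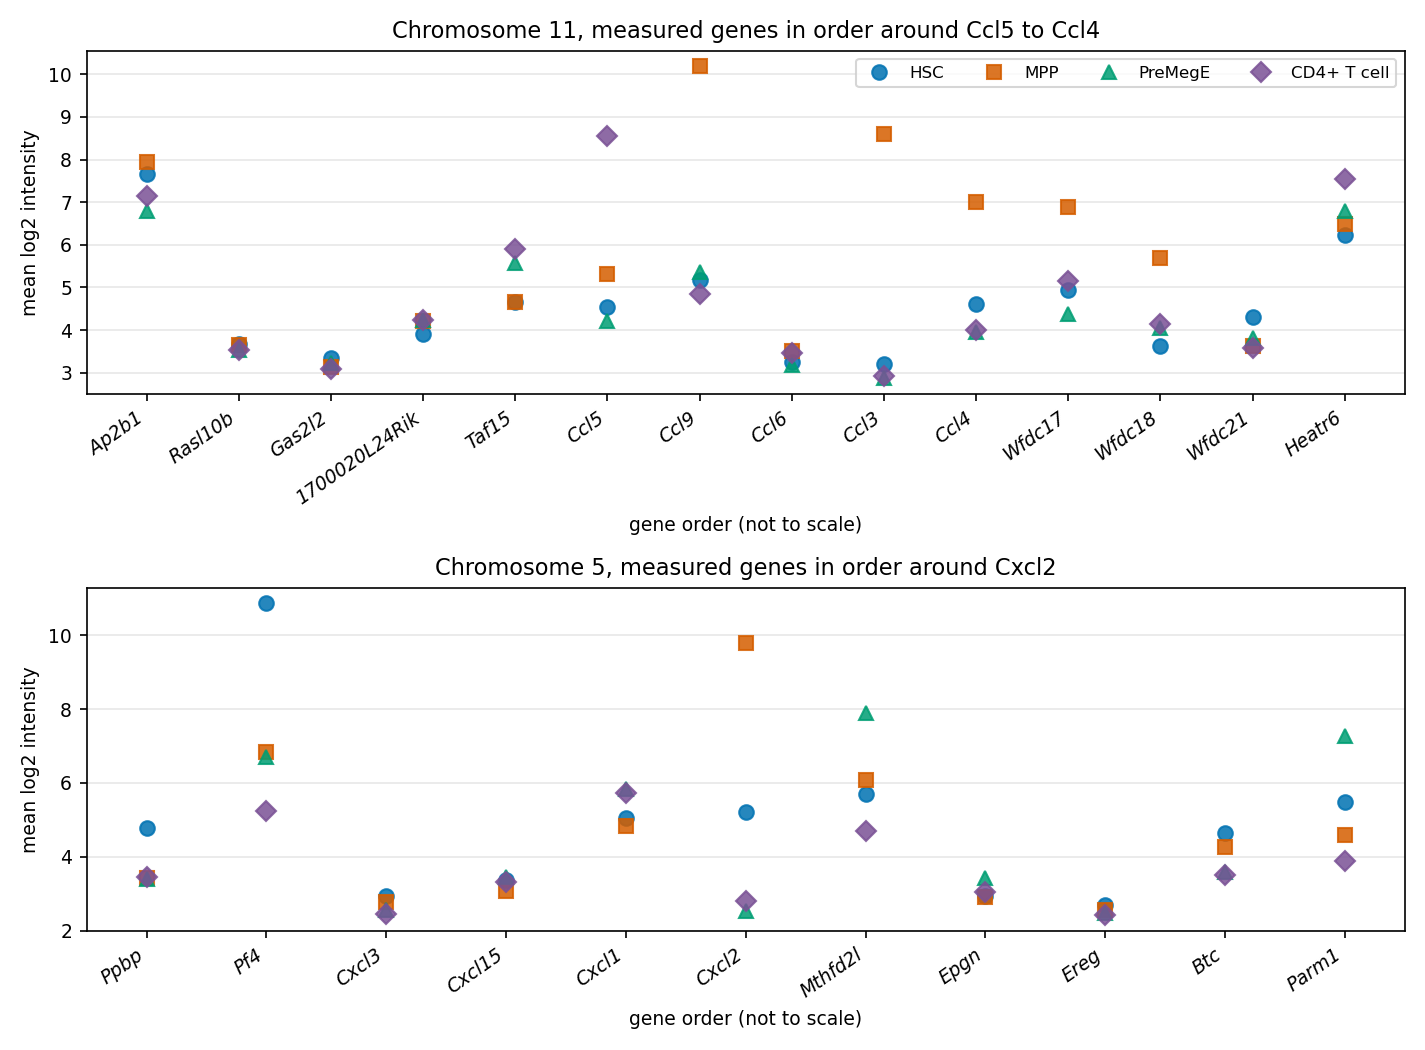
Mean log2 intensity (vertical axis) in HSC, MPP, PreMegE and CD4+ T cells of genes in chromosome order (horizontal axis, not to scale) around the Ccl and Cxcl2 clusters. Ccl9, Ccl3, Ccl4, Wfdc17 and Wfdc18 are highest in MPP with Ccl6 low between them, and Pf4 is highest in HSC.

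Genes known as targets of NF-kB were mostly higher in MPP than in HSC. Of 22 listed, 21 were measured, and 13 rose and 1 fell, with a median difference of 0.81 beside -0.03 over all genes and with 6.38% of all genes called higher. Tnfaip3, which encodes the NF-kB inhibitor A20, rose by 3.42 ± 0.28 (adjusted p = 1.08e-06), from 7.91, 6.72 and 6.86 to 10.44, 10.65 and 10.67. Nfkbiz, a nuclear regulator of NF-kB, rose by 4.23 ± 0.58 (adjusted p = 0.000163), but its HSC arrays spread from 4.92 to 8.23, with the highest on HSC replicate 1, against 10.42 to 10.59 in MPP. Ptgs2, the inducible cyclooxygenase gene, rose by 3.25 ± 0.20 (adjusted p = 5.9e-08), though its next brightest probe set gave 0.31. Nfkbid rose by 2.48 ± 0.28, Ier3 by 2.33 ± 0.31, and the cytokine gene Tnf by 0.88 ± 0.23 (adjusted p = 0.0201). Tnfaip2 fell by 2.54 (SE 0.27, adjusted p = 1.72e-05). The inflammatory cytokine genes Il1b at -0.18, Il1a at -0.10 and Il6 at -0.04 did not pass, and Il1a and Il6 were under the lower quartile in both populations. Between 9 and 13 members were called higher in MPP than in HSC over the alternatives, many of which had fewer arrays. Against HSC, 10 of the 21 were higher in CD4+ T cells and 3 lower, where 17.0% of all genes were called higher. Against PreMegE cells, 13 were higher in CD4+ T cells and 3 lower, where 16.3% were called higher. Against MPP, 6 were higher in CD4+ T cells and 9 lower, where 15.5% were called higher. Higher calls in this list were thus not particular to MPP. The CD4+ T cell means of Ccl3 and Cxcl2 were under the lower quartile.

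Immediate early genes were also mostly higher in MPP than in HSC. Cells switch these genes on within minutes of a stimulus and of handling such as dissociation and sorting. Of 16 genes measured, 12 rose and 0 fell in MPP against HSC, where 6.38% of all genes rose, with a median difference of 1.81. Atf3 rose by 4.29 ± 0.25 (adjusted p = 2.53e-08), from 4.18, 3.30 and 3.13 to 7.80, 7.94 and 7.76. Nr4a1 rose by 3.80 ± 0.49, Klf4 by 3.65 ± 0.34, Gadd45b by 3.59 ± 0.24, Fosb by 2.48 ± 0.24 and Junb by 2.45 ± 0.27. Fos, at 12.76 to 12.88 in HSC and 13.09 to 13.27 in MPP, differed by 0.37 and did not pass, nor did Egr1 at 0.64. With HSC replicate 1 as the only HSC array fewer of the 16 were called higher, which cannot be told apart from the loss of arrays. The median of the list was 9.18, 7.81 and 7.23 on the HSC arrays, 10.76, 10.82 and 10.69 on the MPP arrays, 4.51 to 4.90 on the PreMegE arrays and 8.02 and 7.47 on the CD4+ T cell arrays. MPP was therefore the highest and PreMegE the lowest population, and HSC replicate 1, the HSC array with the highest chemokine levels, was also the highest HSC array of this list. PreMegE cells had 15 of 16 genes lower than MPP and 0 higher, and the NF-kB targets had 15 of 21 lower and 3 higher, where 19.5% of all genes were called lower and 13.5% higher. The part of cell handling, which may have differed between the sorts and the studies, in the chemokine levels was not tested.

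Of the interferon response genes, among which Cxcl10 is often counted, 19 of 22 listed were measured. Between MPP and HSC, 3 rose and 1 fell, where 6.38% of all genes rose and 4.93% fell, with a median difference of 0.06. Oasl1 rose by 0.81 ± 0.19 (adjusted p = 0.01), Irf7 by 0.79 ± 0.17 (adjusted p = 0.00673) and Oasl2 by 0.68 ± 0.18 (adjusted p = 0.0241), and Igtp fell by 0.91 (SE 0.17, adjusted p = 0.00213). With HSC replicate 1 as the only HSC array the differences were 0.46 for Oasl1, 0.52 for Irf7 and 0.45 for Oasl2. Their calls were lost there, which cannot be told apart from the loss of arrays. The Oasl2 call was also lost when HSC replicate 2, HSC replicate 3 or any single MPP array was left out, with limma adjusted p-values of 0.053 to 0.113. In CD4+ T cells against PreMegE cells, where Cxcl10 passed its test, 14 of the 19 genes were higher and 1 was lower. There 16.3% of all genes were called higher and 16.8% lower, and the median difference was 0.93 beside -0.06 over all genes. Against MPP, 11 of the 19 were higher in CD4+ T cells and 4 lower, where 15.5% of all genes were called higher, while Cxcl10 differed by -0.86. Against HSC, 12 were higher and 2 lower, where 17.0% of all genes were called higher, and Cxcl10 differed by 0.28.

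**Figure D4:**
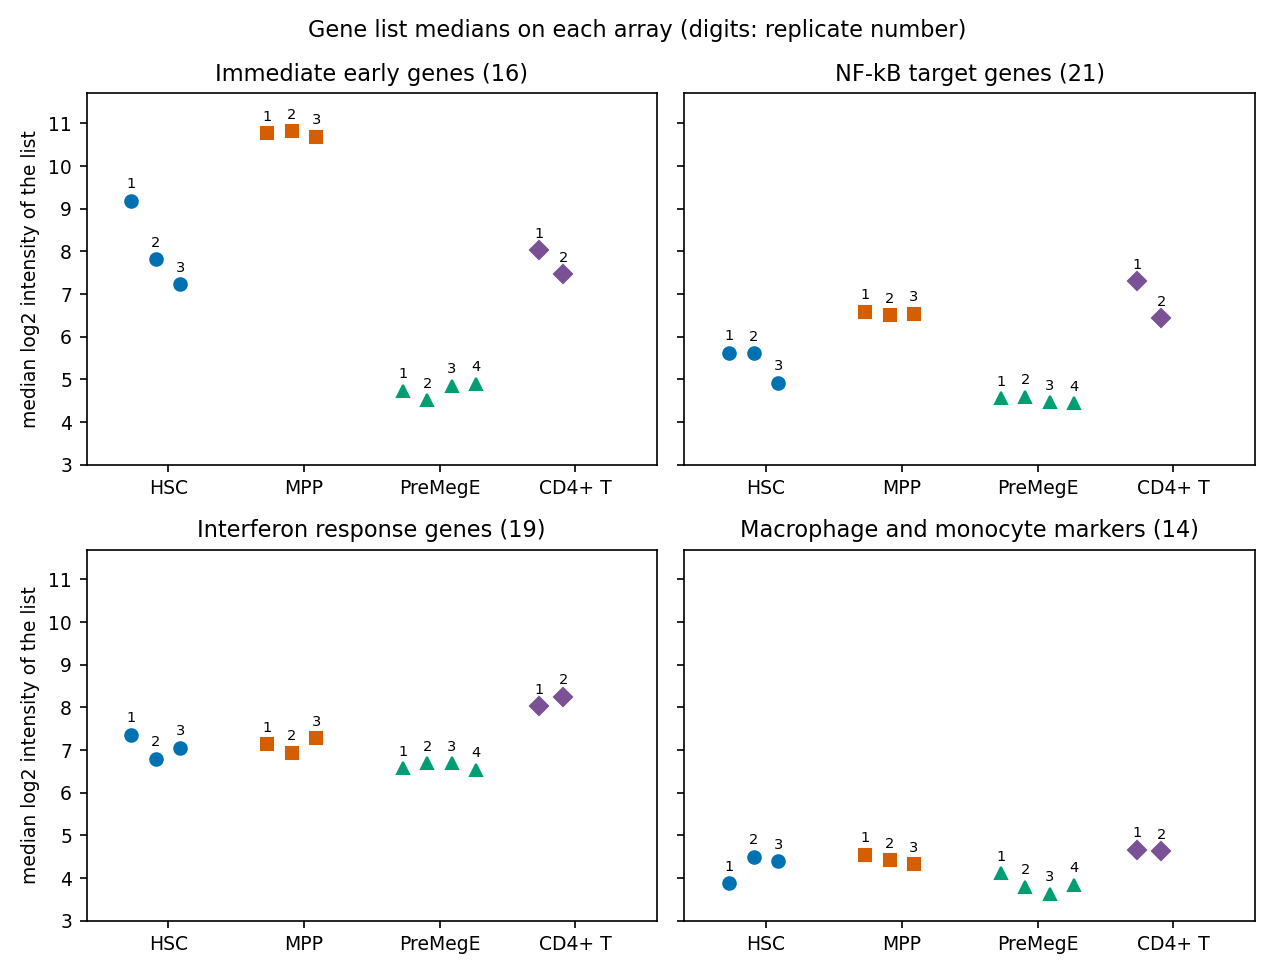
Median log2 intensity over the measured genes of each list (vertical axes) on each array in the 4 populations (horizontal axes), with the replicate number above each point. The immediate early medians lie at 10.69 to 10.82 in MPP, 7.23 to 9.18 in HSC and 4.51 to 4.90 in PreMegE cells.

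Macrophages and monocytes are the best known source of several of these chemokines, and a part of their marker genes was higher in MPP. Of 15 markers, 14 were measured, and 3 rose and 0 fell against HSC, where 6.38% of all genes rose and 4.93% fell, with a median difference of -0.04. Csf1r, the receptor gene for macrophage colony-stimulating factor, rose by 1.67 ± 0.32 (adjusted p = 0.00273), from 6.15, 7.77 and 6.81 to 8.63, 8.54 and 8.57. The lysosomal gene Cd68 rose by 1.24 ± 0.18 (adjusted p = 0.000321) and the lysozyme gene Lyz2 by 0.59 ± 0.18 (adjusted p = 0.0419). Adgre1, which encodes F4/80, differed by -0.20, C1qa by -0.33 and Fcgr1 by -0.11, none of which passed, and Marco and Cx3cr1 were under the lower quartile in MPP. The summed intensity of the 14 genes was 932 to 969 in MPP, 519 to 805 in HSC, 295 to 352 in PreMegE cells and 725 to 852 in CD4+ T cells. The part of macrophages and monocytes in the chemokine levels was not tested.

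Markers of neutrophils, cytotoxic lymphocytes, mast cells and dendritic cells, which can also carry chemokine transcripts, were not called higher in MPP than in HSC. Over all genes 6.38% were called higher and 4.93% lower, and these shares stand beside every count of this paragraph. The lists are short, so nothing is read from counts of 0. Of 9 mature neutrophil markers, 0 rose and 2 fell, namely Ngp by 2.89 (adjusted p = 0.0134) and Chil3 by 2.82 (adjusted p = 0.0184), and the sum of the list was 154 to 311 in MPP against 545, 4261 and 459 on the HSC arrays. Of the NK and cytotoxic markers 0 of 8 passed, with sums of 414 to 451 in MPP and 386 to 487 in HSC. Of the mast cell and basophil markers 0 of 6 passed, with sums of 136 to 163 in MPP and 123 to 165 in HSC. Of the dendritic cell markers 0 of 8 rose and H2-Aa fell, with sums of 769 to 797 in MPP and 766 to 1564 in HSC. The part of these cells in the chemokine levels of MPP was not tested either.

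Across the 12 arrays, 4 of the 6 genes had profiles close to each other. Pearson's r over the 12 arrays was 0.98 for Ccl3 with Ccl9, 0.98 for Ccl4 with Cxcl2 and 0.91 for Ccl9 with Cxcl2, the lowest among these 4. Cxcl10 had 0.74 to 0.84 with the same genes, and Ccl5 had -0.07 to 0.01 with them and 0.41 with Cxcl10. The arrays fall into 4 populations, so these values mostly describe 4 group means and carry no p. Among 2328 genes whose group means span at least 2 log2 units, the profiles most like Ccl3 were those of Ddx4 (r = 0.993), Ptgs2 (0.991) and Sdc1 (0.990), and those most like Ccl4 were Atf3 (0.990), Sdc1 (0.990) and Plk2 (0.989). Ccl9 was most like Bpifc (0.985), Ddx4 (0.982) and Ptgs2 (0.980), and Cxcl2 most like Plk2 (0.993), Ankrd33b (0.989) and Cd244a (0.987). Cxcl10 was most like Il18rap (0.948), Csrnp1 (0.944) and Jund (0.941). Ccl5 was most like Ctla4 (0.993), an inhibitory receptor gene of T cells, Pik3r5 (0.984) and Tecpr1 (0.984).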

How the data were processed

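Total RNA of 12 sorted samples was measured on Affymetrix arrays. The deposited values are 1 linear intensity per probe set. The submitters' processing notes name RMA as the authors' summary method; its version and the arrays normalised together are not given in the sources used here. Array medians were 14.4 to 15.6. Log2 was taken here, without another normalisation or a filter. Of 45101 probe sets, 64 controls were left out, 9160 had no gene symbol, 932 had several and 34945 had exactly 1. Of these last, 34741 matched a gene ID in RefSeq (GRCm38.p6), which changed 0 symbols. The brightest probe set stood for each of 18193 genes, and 9010 genes had others besides it.

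All 12 arrays entered 1 model of group means, fitted with limma 3.58.1 in R 4.3.3 (lmFit, eBayes, two-sided, Benjamini-Hochberg over all genes), and genes were called at an adjusted p under 0.05. "Rose" and "fell" refer to called genes. Groups and replicate numbers came from the titles. PreMegE replicates 3 and 4 carry the same number in their descriptions and were averaged in an alternative. On simulated data the fit recovered 68% of log2 changes of 1 and 98% of changes of 2 in MPP against HSC, and 62% and 98% in CD4+ T cells against PreMegE cells. The number of arrays limits the precision.

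The genes described and the gene lists were chosen with earlier results of these data known, so no list's direction is independent evidence. The genes named are the 6 members, their receptors, up to 6 called genes with the largest change per list, and the 3 most similar profiles per member among genes spanning at least 2 log2 units. Other genes, the marker genes and the 5 neighbours on each side included, were named after their values were seen. Zc3h12a belongs to both the NF-kB and the mRNA decay list, and Zfp36 to both the immediate early and the decay list. The 22 alternatives covered the probe set, scaling, an offset of 16, a filter on low values, a replicate block, the averaged PreMegE arrays, the groups fitted, HSC replicate 1 as the only HSC array, and leaving out each array.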

Additional observations from a re-analysis of the deposited data

How the results depend on the processing

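All 6 genes kept the sign of their MPP minus HSC difference under the 22 alternatives, with ranges of 4.01 to 5.66 for Ccl3, 1.83 to 2.55 for Ccl4, 0.51 to 1.04 for Ccl5, 0.78 to 5.08 for Ccl9, 3.58 to 5.08 for Cxcl2 and 0.77 to 1.33 for Cxcl10. The number of genes called between MPP and HSC was 2058, 779 with HSC replicate 1 as the only HSC array, and 1280 to 2341 when single arrays were left out, with 1280 without MPP replicate 3. Between PreMegE cells and HSC it was 5255, and 3395 with HSC replicate 1 as the only HSC array, both settings having fewer samples. In CD4+ T cells against PreMegE cells, 2 to 3 of the 6 genes were called when single arrays were left out. Small differences that did not pass changed sign: Ccl3 to -0.0068 and Ccl4 to -0.0008 without CD4+ T cell replicate 1, Ccl4 to -0.0703 and -0.0474 without PreMegE replicates 2 and 3 (single-array ranges -0.0068 to 0.1066 for Ccl3 and -0.0703 to 0.1477 for Ccl4), and Ccl9 to 0.0697 with the next brightest probe set. Between MPP and HSC, the next brightest probe set gave -0.283 for Zc3h12a, which had passed, -0.255 for Ccl6 and 0.2201 for Cxcl1, and Cxcl1 was 0.0683 with the mean of its probe sets and -0.4505 to 0.0382 when single arrays were left out, the highest without HSC replicate 2. The cause was not tested. Quantile normalisation moved the share of higher calls between MPP and HSC from 56.4% to 44.4%, and cyclic loess to 46.7%. Deviations of same-numbered arrays correlated at -0.119 to 0.413, the highest for HSC and PreMegE replicate 3. Arrays of different number were not compared, so these values cannot decide whether the numbers pair the samples. With the replicate block 2153 genes were called between MPP and HSC, 5034 between PreMegE cells and HSC, 7113 between CD4+ T cells and HSC, 5800 between PreMegE cells and MPP, 6519 between CD4+ T cells and MPP and 5929 between CD4+ T cells and PreMegE cells, of which 2 were among the 6 genes.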

Other observations

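Chemokine mRNAs are known to be short-lived, and several RNA-binding proteins that speed or slow their decay were measured. Of 8 such genes, 3 rose and 0 fell in MPP against HSC, where 6.38% of all genes rose and 4.93% fell, with a median difference of 0.24. Zc3h12a, which encodes the RNA-cutting protein Regnase, rose by 2.15 ± 0.23 (limma, adjusted p = 1.72e-05), but its next brightest probe set gave -0.283. Zfp36, which encodes the decay factor tristetraprolin, rose by 1.69 ± 0.36 (adjusted p = 0.00525), and with HSC replicate 1 as the only HSC array the difference was 0.63 (adjusted p = 0.335). Zfp36l1, a relative of Zfp36, rose by 0.91 ± 0.21 (adjusted p = 0.00929), but its next brightest probe set gave 0.14 (adjusted p = 0.789), and without MPP replicate 1 the adjusted p was 0.0504. Over the alternatives between 1 and 3 of the genes were called higher.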
